A study of Mus musculus with 2 samples.

Results

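The genes described here are the ATF4 bZIP network with Nupr1 and Trib3: Atf3, Atf4, Atf5, Ddit3, Ddit4, Trib3, Nupr1, Chac1, Cebpb and Sesn2. These 10 genes of 26127 in the expression table were found by symbol, each on 1 row. The group was chosen by its expression differences between these same libraries, so its levels and ratios are a description and carry no test. The study sequenced total RNA of extraembryonic endoderm stem (XEN) cells, lines that represent the primitive endoderm of the mouse blastocyst, from the female ICR line PS10. Cells of the Gata6-AS LNA library received a locked nucleic acid (LNA) aimed at Gata6-AS, the noncoding antisense partner of the endoderm factor gene Gata6. Cells of the control LNA library received a control LNA with the same lipid reagent, and the sample titles call both reagents siRNA. Neither the time after transfection nor separate cultures are described, and PS10 is a single line. With 1 library per group, a difference compares these 2 libraries and has no replicate check.

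ATF4 is a basic leucine zipper (bZIP) transcription factor at the centre of the integrated stress response. Kinases that sense amino acid shortage, unfolded protein in the endoplasmic reticulum, heme shortage or viral RNA phosphorylate the initiation factor eIF2, which lowers general translation but raises translation of ATF4 from its existing mRNA. ATF4 then pairs with C/EBP family proteins on composite promoter elements of genes for amino acid synthesis, amino acid import, tRNA charging and stress control. Several of these genes feed back on it: CHOP (from Ddit3), ATF3 and ATF5 are bZIP factors of the same network, and Trib3 encodes a pseudokinase that binds ATF4 and restrains it.

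Promoters are shown first because the network is known by a sequence that its members can share. RefSeq promoters (build GRCm38.p6, 250 bases before to 50 bases from the annotated start, on the gene's strand) were matched for all 10 genes, in 11 entries since Atf5 has 2. The letters TGATGNAA, the ATF4 and C/EBP composite element, were searched on both strands, and a match on the opposite strand reads TTNCATCA along the gene. A match was found for 4 of the 10 genes, Nupr1, Trib3, Atf3 and Chac1, each on the opposite strand. The same letters occur in 4.51% of all 27025 genes in that table and in 2.62% of the 8445 of them whose mean level here was at least 1 RPKM (reads per kilobase and per 1000000 reads). Below, the matching bases are in capitals, with their flanks in lower case.

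Nupr1, minus strand, chr7:126625562-126625591: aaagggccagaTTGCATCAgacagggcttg
Trib3, minus strand, chr2:152344028-152344057: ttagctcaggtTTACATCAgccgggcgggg
Atf3, minus strand, chr1:191183425-191183454: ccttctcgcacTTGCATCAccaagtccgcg
Chac1, plus strand, chr2:119351038-119351067: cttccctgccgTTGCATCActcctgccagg

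Counted from the annotated start, the matches begin at position -110 in Nupr1 and Atf3, at -193 in Chac1 and at 15 in Trib3. Nupr1, Atf3 and Chac1 share all 8 letters of the match, and Trib3 has another base at the free position. The 200 bases at the upstream end of the window are given for Atf3 and Chac1, to show what surrounds the match.

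Atf3, minus strand, chr1:191183384-191183583: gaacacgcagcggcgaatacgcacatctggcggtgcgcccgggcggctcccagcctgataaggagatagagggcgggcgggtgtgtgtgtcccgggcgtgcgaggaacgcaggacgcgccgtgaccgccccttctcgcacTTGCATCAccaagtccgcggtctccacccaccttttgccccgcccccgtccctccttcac
Chac1, plus strand, chr2:119350992-119351191: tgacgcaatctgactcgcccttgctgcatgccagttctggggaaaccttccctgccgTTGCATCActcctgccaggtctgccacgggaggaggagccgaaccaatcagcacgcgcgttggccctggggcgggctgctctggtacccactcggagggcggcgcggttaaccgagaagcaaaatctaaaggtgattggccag

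No member window held TGACGTCA (the cAMP response element, in 2.03% of all genes) or the endoplasmic reticulum stress element (in 0.137%). None held TTGCNNAA, a loose C/EBP site pattern that is not itself palindromic (in 12.2%). These letters describe a window of 300 bases, and their absence says nothing of sites farther away.

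The RPKM values resolve into whole reads, which puts the depth at 122945000 reads in the Gata6-AS LNA library and 103562000 reads in the control LNA library. Gata6-AS itself, listed as 1010001N08Rik, stood at 5.83 RPKM in the Gata6-AS LNA library, against 10.1 RPKM in the control LNA library, or 57.8% of control with an exact 95% counting interval of 50.5% to 66.1%. Its row overlaps Gata6 on the opposite strand and the labels do not say whether counting used strand, so this value may hold reads of both. Gata6 stood at 55.7 RPKM with the Gata6-AS LNA and 81.9 RPKM with the control LNA, or 68.0% of control (66.8% to 69.3%). All 10 XEN markers searched were present, at 35.9 to 1689 RPKM in the Gata6-AS LNA library and 31.0 to 2104 RPKM in the control LNA library. Their summed level was 4491 RPKM in the Gata6-AS LNA library and 5972 RPKM in the control LNA library. On the log2 scale 8 of the 10 were below 0 and 2 above, while 58.0% of all genes tested lay above 0. They ran from Sox7 at 40.9% of control to Dab2 at 140%. Markers of embryonic stem cells summed to 5.13 RPKM in the Gata6-AS LNA library and 4.69 RPKM in the control LNA library. Nearly all of that was Nanog, and 2 of the 6, Sox2 and Esrrb, were at 0 in both. Trophoblast markers summed to 1.64 RPKM in the Gata6-AS LNA library and 0.984 RPKM in the control LNA library, with Hand1 at 0 in both. Most of that was Cdx2, at 1.19 RPKM with the Gata6-AS LNA and 0.653 RPKM with the control LNA. Of the 6 trophoblast markers searched, Tfap2c had no entry under that symbol and is not in these sums. Other symbols of the gene were not searched. Fibroblast markers summed to 0.0150 RPKM in the Gata6-AS LNA library and 0.00541 RPKM in the control LNA library, with Col3a1, Thy1 and Twist2 at 0 in both. The part of these shifts in the results below was not tested.

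Nupr1, Atf5 and Trib3 stood far lower with the Gata6-AS LNA, while the mRNA of ATF4 itself was nearly level. These were at least 2-fold lower on the log2(RPKM + 1) scale, which is 3 of the 9 members that reached a mean of 1 RPKM. No member was 1.5-fold higher, and no further member was 1.5-fold lower. Across all 10869 genes at that level, 0.451% were at least 2-fold lower and 0.331% at least 2-fold higher, and 1.95% were at least 1.5-fold lower and 3.42% at least 1.5-fold higher. Because the members were picked with these differences in view, nothing is read from the contrast of those shares. In bulk RNA, fewer expressing cells and less RNA per cell cannot be told apart.

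**Figure D1:**
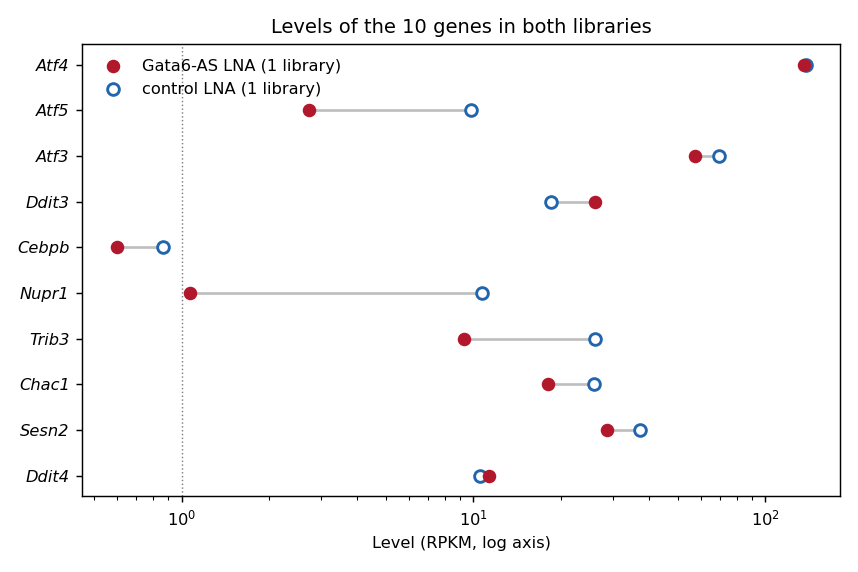
Level of each of the 10 genes in RPKM on a log axis, in the Gata6-AS LNA library (filled) and the control LNA library (open), 1 library each; the dotted line marks 1 RPKM. Nupr1, Atf5 and Trib3 have the longest gaps, Ddit3 and Ddit4 lie to the right of their control, and Atf4 is the most abundant in both libraries.

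Atf4 was the most abundant of the 10 in both libraries, at 136 RPKM with the Gata6-AS LNA and 138 RPKM with the control LNA. It lies at chr15:80085614-80087970 (mm9, plus strand). The Gata6-AS LNA library held 98.5% of the control level, with a counting interval of 95.2% to 101.9% that spans equality. The table measures mRNA, so translation of ATF4, the step the integrated stress response acts on, was not observed.

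Atf5, a bZIP factor of the same subfamily whose translation is controlled much like that of ATF4, had the lowest ratio after Nupr1. Its level was 2.74 RPKM with the Gata6-AS LNA and 9.78 RPKM with the control LNA, a log2(RPKM + 1) difference of -1.53. Relative to control its level was 28.0% (25.6% to 30.6%), resting on at least 671 reads with the Gata6-AS LNA and 2017 with the control LNA. In rank it was number 10 from the lowest of all genes tested. Atf5 (mm9, chr7:52067627-52072028, minus strand) shares 571 bp with Nup62 and 289 bp with Il4i1 on the opposite strand. Nup62 stood at 39.5 RPKM with the Gata6-AS LNA and 43.8 RPKM with the control LNA, and which of these genes the reads there came from was not tested.

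Atf3, an early stress-induced bZIP factor that can repress its own promoter, was moderately lower. The gene (mm9, chr1:192994175-193007219, minus strand) stood at 57.6 RPKM with the Gata6-AS LNA, against 69.3 RPKM with the control LNA. That is 83.1% of control (81.1% to 85.0%), a narrow interval because at least 14041 reads with the Gata6-AS LNA and 14241 with the control LNA lie behind it. It carries the composite element match at position -110, as Nupr1 does, but its log2 difference was -0.26.

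Ddit3, which encodes CHOP, the bZIP factor tied to cell death under lasting endoplasmic reticulum stress, was higher. The gene (mm9, chr10:126727830-126733344, plus strand) stood at 26.0 RPKM with the Gata6-AS LNA and 18.4 RPKM with the control LNA, or 141% of control (131% to 152%). Its log2 difference of 0.48 was the highest of the 10 and lay under the 1.5-fold limit of 0.585. Its last 68 bp overlap Mars, the methionyl-tRNA synthetase gene on the opposite strand, which was lower (46.4 RPKM with the Gata6-AS LNA and 80.8 RPKM with the control LNA).

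Cebpb, an intronless gene for a C/EBP protein that can pair with ATF4, was near the bottom of the range. The gene (mm9, chr2:167514415-167515918, plus strand) stood at 0.600 RPKM with the Gata6-AS LNA and 0.867 RPKM with the control LNA, below the mean of 1 RPKM used for counts. The ratio of 69.3% has a wide counting interval of 53.4% to 89.7%, from 111 reads with the Gata6-AS LNA and 135 with the control LNA. The row lies for 908 of its 1504 bp within Tmem189 on the opposite strand, which stood at 65.9 RPKM with the Gata6-AS LNA and 89.3 RPKM with the control LNA. How much of the Cebpb value comes from that gene was not tested.

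Nupr1, a small nuclear protein induced by many stresses and a known ATF4 target, had the most negative log2 difference of all 10869 genes tested. It stood at 1.07 RPKM in the Gata6-AS LNA library, against 10.7 RPKM in the control LNA library, a log2(RPKM + 1) difference of -2.49. The pseudocount of 1 RPKM shrinks such a low value: the plain ratio is 10.04% of control (8.92% to 11.3%), or 9.96-fold lower, from at least 323 reads with the Gata6-AS LNA and 2710 with the control LNA. The gene lies at chr7:133766763-133770524 (mm9, minus strand), and no other row of the table overlaps it.

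Trib3, whose product restrains both ATF4 and the kinase AKT, stood at 9.28 RPKM with the Gata6-AS LNA and 26.0 RPKM with the control LNA. This is 35.7% of control (34.0% to 37.4%) and a log2 difference of -1.39, number 16 from the lowest. It lies at chr2:152163158-152169768 (mm9, minus strand) with no overlapping row. In the control LNA library Trib3 was level per length with Chac1, while in the Gata6-AS LNA library it was below it.

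Chac1, a glutathione-degrading enzyme induced by ATF4, stood at 18.0 RPKM with the Gata6-AS LNA and 25.8 RPKM with the control LNA. That is 70.0% of control (67.0% to 73.2%) and a log2 difference of -0.49, just inside the 1.5-fold limit. In mm9, Chac1 lies at chr2:119176965-119180117 (plus strand), Sesn2 at chr4:132047947-132066416 (minus strand) and Ddit4 at chr10:59412423-59414518 (minus strand). Sesn2, a leucine-binding inhibitor of mTORC1 signalling that responds to both ATF4 and p53, stood at 28.7 RPKM with the Gata6-AS LNA and 37.2 RPKM with the control LNA, or 77.2% of control (75.3% to 79.1%). Its span holds a low predicted gene of the same strand, Gm12981, at 0.667 RPKM with the Gata6-AS LNA and 0.512 RPKM with the control LNA. Ddit4, another mTORC1 inhibitor, also known as REDD1 and induced by hypoxia and glucocorticoids as well as ATF4, stood at 11.3 RPKM with the Gata6-AS LNA and 10.5 RPKM with the control LNA. Its 107.5% of control (101.1% to 114.4%) lies just above equality. Sesn2 and Ddit4 thus stood on opposite sides of 100%.

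**Figure D2:**
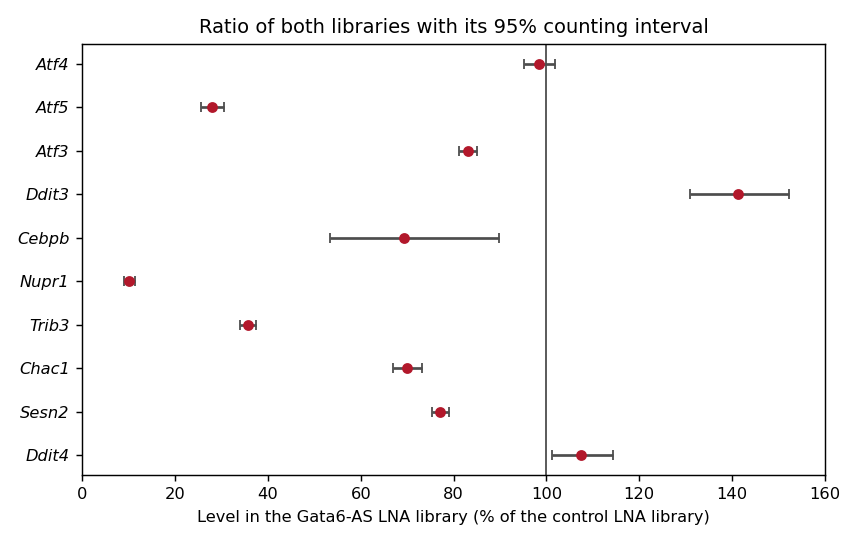
Level of each gene in the Gata6-AS LNA library as a percentage of the control LNA library, with the exact 95% interval from the least number of reads behind both values (counting error only). Nupr1 at 10.04%, Atf5 at 28.0% and Trib3 at 35.7% lie apart from the others, which run from 69.3% to 141%, and the Atf4 interval includes 100%.

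The 10 genes were thus spread widely, from 10.04% to 141% of control, with 7 of the 9 measured members below 0 on the log2 scale and 2 above. Their median log2 difference was -0.36, against 0.05 over all genes tested, of which 58.0% lay above 0. The genes with a composite element match did not share a ratio: Nupr1 and Trib3 are among the lowest, while Chac1 was at 70.0% and Atf3 at 83.1%. Atf5, without a match in either of its promoter windows, had a lower ratio than Trib3.

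**Figure D3:**
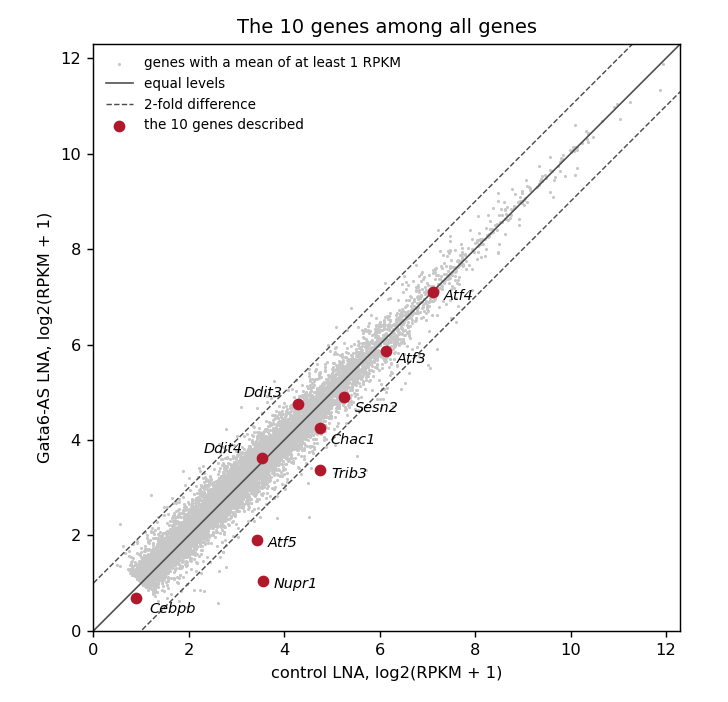
log2(RPKM + 1) in the Gata6-AS LNA library against the control LNA library for all genes averaging 1 RPKM or more (grey) and the 10 genes described (red). Nupr1, Atf5 and Trib3 lie below the lower 2-fold line, and Atf4 sits on the line of equal levels.

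The genes nearest to Trib3 in both libraries, by distance on the log2(RPKM + 1) scale over 2 libraries, were Pck2 (9.61 RPKM with the Gata6-AS LNA and 22.6 RPKM with the control LNA), Slc1a4 and Lpin1, the last at 10.4 RPKM with the Gata6-AS LNA and 21.0 RPKM with the control LNA. With 2 libraries this likeness is only a similar pair of levels.

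In the authors' deposited table, 4 of the 10 genes were listed among 2099 genes, all lower with the Gata6-AS LNA. Of all 26127 genes, 3.9% were listed there as lower and 4.14% as higher, and nothing is read from the members' share, since they were picked on this contrast. There Nupr1 was the first gene listed, with a log2 difference of -3.42 (the authors' deposited table gives p = 1.67e-16). Atf5 had -1.94 (p = 5.76e-07) and Trib3 -1.54 (p = 2.08e-06) in the authors' deposited table, and Chac1 -0.56 (p = 0.0474). The labels do not name the test behind these p-values, and each group had 1 library.

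The genes that ATF4 is known to drive were mostly lower, most of all the enzymes of amino acid and folate metabolism. All 12 listed enzymes were measured and below 0, with a median log2 difference of -0.98. Of these, 6 were at least 2-fold and 10 at least 1.5-fold lower, against 0.451% and 1.95% of all genes tested. The gene lists were chosen with earlier results of these data known, so nothing is read from the contrast of shares. Mthfd2, a mitochondrial folate enzyme, stood at 32.3 RPKM with the Gata6-AS LNA and 85.7 RPKM with the control LNA (-1.38), and asparagine synthetase, Asns, at 41.5 RPKM with the Gata6-AS LNA and 96.8 RPKM with the control LNA (-1.20). Pck2, the mitochondrial phosphoenolpyruvate carboxykinase, had a log2 difference of -1.15. The phosphoserine phosphatase gene Psph had -1.13, Shmt2 -1.08 and the proline synthesis gene Aldh18a1 -1.06. Phgdh, which opens serine synthesis, was at 98.8% of control (97.2% to 100.5%), unlike Psat1 (58.6%) and Psph (45.1%), which act after it.

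Some amino acid transporters and most tRNA synthetases were lower too. Of 9 measured transporters, 3 were at least 2-fold and 4 at least 1.5-fold lower, against 0.451% and 1.95% of all genes tested. Their median was -0.54, and 2 were above 0. Slc1a4, a carrier of small neutral amino acids, stood at 8.92 RPKM with the Gata6-AS LNA and 32.2 RPKM with the control LNA (-1.75), Slc7a5, the large neutral amino acid carrier, had a difference of -1.55, and the cationic carrier Slc7a1 of -1.09. The glycine carrier Slc6a9 was at -0.83. The cystine carrier Slc7a11 was above 0 in this list (0.44), as was Slc43a1 (0.16). All 12 cytosolic tRNA synthetases listed were below 0, 10 of them at least 1.5-fold and 1, the tryptophan enzyme Wars (27.9 RPKM with the Gata6-AS LNA and 63.5 RPKM with the control LNA, -1.16), at least 2-fold lower. Lars (-0.87), Gars (-0.86) and Nars (-0.82) had the next lowest differences, and the median was -0.81. Of all genes tested, 1.95% were at least 1.5-fold and 0.451% at least 2-fold lower.

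**Figure D4:**
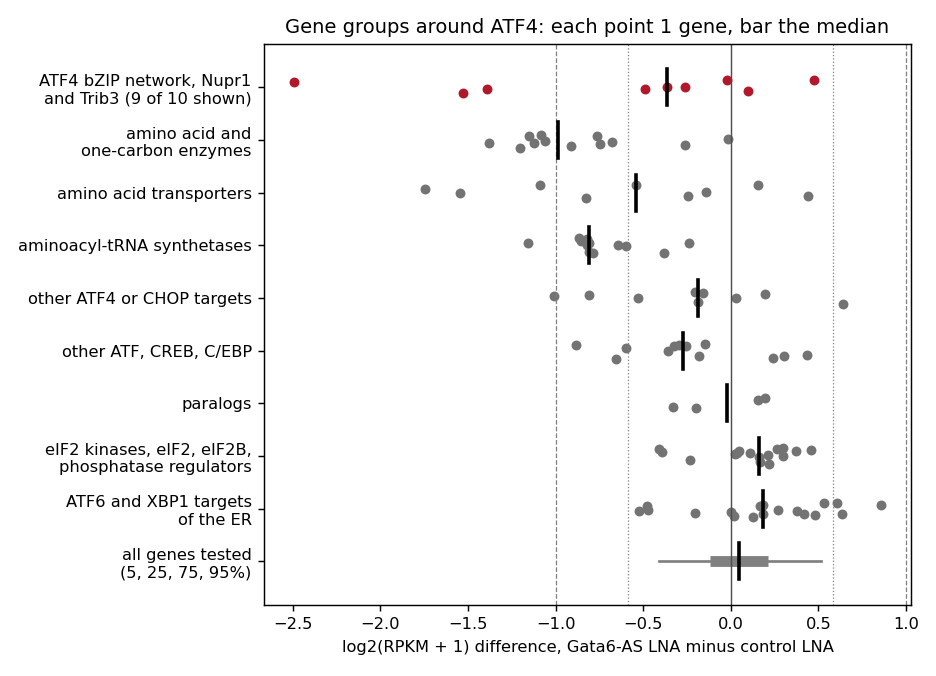
log2(RPKM + 1) difference, Gata6-AS LNA minus control LNA, for each measured gene of the groups around ATF4 (points), with the group's median (bar); the lowest row gives percentiles of all genes tested, and dashed and dotted lines mark 2-fold and 1.5-fold. Medians run from -0.98 for the enzymes of amino acid metabolism to 0.18 for endoplasmic reticulum genes.

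Other known targets of ATF4 or CHOP were mixed. Of 9 measured, 2 were at least 1.5-fold lower and 1 at least 1.5-fold higher, against 1.95% and 3.42% of all genes tested. Their median was -0.18, and 3 others were below 1 RPKM. The lipoprotein receptor gene Vldlr stood at 6.12 RPKM with the Gata6-AS LNA and 13.3 RPKM with the control LNA (-1.01), and the angiogenic factor Vegfa was at -0.81. The proapoptotic gene Bbc3 was at 0.64, and the translation repressor Eif4ebp1 at -0.53.

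Of 22 other ATF, CREB and C/EBP genes, 21 had an entry and 12 reached a mean of 1 RPKM, with a median of -0.27. Of the 12, 3 were at least 1.5-fold lower and none 1.5-fold higher, against 1.95% and 3.42% of all genes tested. Cebpg, a C/EBP partner of ATF4, stood at 6.06 RPKM with the Gata6-AS LNA and 12.0 RPKM with the control LNA, or 50.5% of control (47.0% to 54.2%). Jdp2, a repressor that can pair with ATF3 and CHOP, was at 62.6% of control (60.5% to 64.7%), and Xbp1, the bZIP factor of the IRE1 branch of the unfolded protein response, at 65.3% (63.6% to 66.9%). Creb3l4, a membrane-bound relative, stood at 1.76 RPKM with the Gata6-AS LNA and 1.05 RPKM with the control LNA (0.43). None of the 4 measured paralogs of the members was 1.5-fold different: Trib1 was at 0.16, Sesn1 at 0.19, Sesn3 at -0.33 and Chac2 at -0.20 on the log2 scale. Trib2 and Ddit4l were below 1 RPKM in both libraries. Ddit4l, the paralog of Ddit4, stood at 0.739 RPKM with the Gata6-AS LNA and 0.374 RPKM with the control LNA, or 197.5% of control (157.9% to 248%).

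Genes upstream of ATF4 translation were close to level. The 16 genes listed were those for eIF2 kinases, the kinase regulators Gcn1l1 and Impact, eIF2, eIF2B and regulators of eIF2 dephosphorylation. All 16 were measured, none was 1.5-fold different, 13 were above 0 and the median was 0.16. In this comparison 58.0% of all genes tested lay above 0. Gcn1l1, a coactivator of the amino acid sensing kinase, had 0.46, Eif2s2 -0.41, the constitutive phosphatase regulator Ppp1r15b -0.39 and Eif2b5 0.37. The kinase PERK, from Eif2ak3, stood at 127% of control (121% to 133%) and the amino acid sensing kinase GCN2, from Eif2ak4, at 115% (108% to 124%).

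Genes driven by ATF6 and XBP1, in the other branches of the unfolded protein response, were also counted. Of 18, 3 were at least 1.5-fold higher and none 1.5-fold lower, against 3.42% and 1.95% of all genes tested. Of the 18, 14 lay above 0, against 58.0% of all genes tested, and their median was 0.18. With the median of all genes set to 0, 2 were at least 1.5-fold higher. The chaperone cofactor Sdf2l1 (0.86), the chaperone Hspa5 (0.64) and the disulfide isomerase Pdia4 (0.60) had the highest differences, and Hsp90b1 was at 0.53. On the other side of 0 were Sel1l (-0.53), Herpud1 (-0.48), Dnajb9 (-0.47) and Dnajc3 (-0.21). In the authors' deposited table, 10 of the 12 enzymes, 10 of the 12 synthetases and 5 of the 10 transporters were listed as lower, and 1 transporter as higher. Of the 18 endoplasmic reticulum genes, the authors' deposited table lists 5 as higher and 2 as lower. Of all 26127 genes, it lists 3.9% as lower and 4.14% as higher.

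The composite element letters were also counted in those groups, where the promoter table held the gene. They occurred in 5 of 8 tRNA synthetases, 3 of 10 enzymes (Asns, Pycr1 and Pck2) and 2 of 7 transporters (Slc1a4 and Slc7a11). Matches were also held by 2 of 10 other targets of ATF4 or CHOP and 2 of 16 other ATF, CREB and C/EBP genes. In the eIF2 group 1 of 13 genes had a match, of the endoplasmic reticulum genes 1 of 16 (Herpud1), and of the paralogs 0 of 5. Slc7a11 had a match and a level of 142% of control, while neither Phgdh, at 98.8% of control, nor Shmt2, at 46.5%, had one. The endoplasmic reticulum stress element, absent from the member windows, occurred in 8 of 16 endoplasmic reticulum genes. Among tested genes at least 2-fold lower, 8 of the 36 with an entry held the composite element letters, Nupr1 and Trib3 among them. Of those at least 2-fold higher, 1 of 21 did. At 1.5-fold, 20 of 161 lower and 5 of 292 higher genes held them, against 2.62% of all tested genes with an entry. These sets were defined by the differences that also picked the members, so nothing is read from the contrast.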

How the data were processed

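Total RNA of PS10 XEN cells was sequenced as 1 library per LNA. The authors aligned reads with TopHat to mm9, per the submitters' processing notes; the counter, annotation and use of strand are not named in the sources used here. Per the file headers, the authors deposited RPKM values for all genes and a table of selected genes with log2 values and p-values. Those log2 values are not the log2 of the RPKM, and the authors' test is not given.

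Differences here are log2(RPKM + 1), Gata6-AS LNA minus control LNA, counted over genes whose mean reached 1 RPKM. Whole reads were recovered from the steps in RPKM (tolerance 0.0002 reads). They give the least number of reads behind a value and exact 95% Clopper-Pearson intervals, which cover counting error only, since reads are not independent molecules. No test was run. Motifs were searched in RefSeq promoters. The read recovery was tested on simulated data. Python 3.11.15, numpy 2.4.6, pandas 2.3.3, scipy 1.17.1 and matplotlib 3.10.9 were used.

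The members and gene lists were chosen with earlier results of these data known. Named were all members, in each pathway list the genes at least 2-fold different and up to 4 with the largest differences, and the 3 genes nearest to Trib3; those nearest to Nupr1 are not reported here. Phgdh, Psat1, Slc43a1, Eif2ak3, Eif2ak4, Ddit4l, Sel1l, Herpud1, Dnajb9 and Dnajc3 were added after their values were seen. So were the levels of Cdx2, the ratios of Sox7 and Dab2 and the genes that overlap or neighbour members or hold a motif.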

Additional observations from a re-analysis of the deposited data

How the results depend on the processing

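Alternatives were a pseudocount of 0.1 or 0.5 RPKM, a minimum mean of 5 RPKM or none, a median difference of all genes set to 0, libraries scaled to 1000000 summed RPKM, and the authors' deposited log2 values. The counts of members at least 2-fold lower (3), 1.5-fold lower (3) and 1.5-fold higher (0) held in all of those that gave them, and no member's called difference turned round. The members' median of -0.36 became -0.41 with the median of all genes at 0, -0.40 with scaled libraries (10 members), -0.31 with no filter (10 members) and -1.74 in the authors' deposited table, which lists only 4 members. Nupr1 depended most on the pseudocount, at -3.20 with 0.1 RPKM and -2.83 with 0.5 RPKM, and the authors' deposited table gives -3.42. Atf5 was at -1.80 and -1.67 with those pseudocounts. Among the other ATF, CREB and C/EBP genes, 5 instead of 3 were at least 1.5-fold lower with scaled libraries and in the authors' deposited table, and 1 instead of 0 was 1.5-fold higher with scaled libraries or 0.1 RPKM. The authors' deposited table has 4 instead of 2 other targets 1.5-fold lower and 1 instead of 0 endoplasmic reticulum genes 1.5-fold lower. Of the paralogs, 1 instead of 0 was 1.5-fold higher there and with scaled libraries. No paired analysis was possible because each group has 1 library. The same reason leaves the spread between cultures unknown, and the least read numbers limit only counting error. Overlap on unknown strands limits Atf5, Cebpb and Ddit3.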

Other observations

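Genes near the members on the chromosome were also described. Nupr1, Atf5 and Trib3 ranked 1, 10 and 16 from the lowest of all genes tested. Almost any neighbour would be less low than these, so nothing is read from that contrast. Within 100 kb of the 10 members lay 48 genes whose mean reached 1 RPKM, with log2 differences of -0.79 to 0.41 and a median of -0.00. Only Mars, beside Ddit3, was past 1.5-fold. Of all genes tested, 1.95% were at least 1.5-fold lower and 3.42% at least 1.5-fold higher. The 6 neighbours of Nupr1 lay between -0.08 and 0.24, the 11 of Atf5 between -0.18 and 0.41, and the 3 of Trib3 between -0.14 and 0.22. Beside other members, neighbours could differ as much as the member or more: Tmem189 (-0.43) and Ube2v1 (-0.37) lie beside Cebpb (-0.22), and Anapc16 (-0.52) beside Ddit4 (0.10). These windows were chosen with the members' values known.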
